A study of Rattus norvegicus with 4 samples.

Results

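The 9 genes described here encode transcription factors known from the mesenchyme of the meninges, the membranes that wrap the brain. They are the forkhead genes Foxc1, Foxc2 and Foxd1, the zinc finger genes Zic1, Zic2, Zic4 and Osr1, the T-box gene Tbx18 and the basic helix-loop-helix gene Twist1. They were picked by gene symbol, each symbol had 1 row in the table of every library, and all 9 were found among the 14004 genes with a symbol. The choice was made with their lower values after bisphenol A (BPA) in these same libraries known, so their values are given as a description and carry no test.

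The measurements came from RNA-seq of the frontal (prefrontal) cortex of newborn rats, with 4 libraries, 1 for each sex and prenatal treatment. BPA, a plastics monomer that can bind hormone receptors, was given to pregnant dams by gavage at 5000 µg/kg of maternal body weight every day from gestation day 1 to birth, dissolved in ethanol and corn oil. Control dams received the same ethanol and corn oil without BPA, so the vehicle was common to all 4 groups, and the labels place the male and female pups at postnatal day 1. The labels give the strain as Wistar and the methods of the study as Wistar Furth. By those methods the meninges were stripped from the brain before the cortex was taken, and 3 pups of each sex and treatment came from independent litters, but whether pups were pooled into a library is not stated. With 1 library per group there were no replicates within a sex, and intervals below cover the error of counting fragments only.

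The meningeal mesenchyme arises from cranial neural crest and mesoderm and gives rise to the fibroblasts of the pia, arachnoid and dura, and the neighbouring mesenchyme also forms the skull. Its fibroblasts lay down the collagens of the basement membrane on the brain surface and secrete retinoic acid, the chemokine Cxcl12 and bone morphogenetic proteins, which act on the cortex beneath. Forkhead factors, Twist1 and Osr1 are known regulators of this mesenchyme and of other connective tissue. Zic genes are made in meningeal cells and also in neural cells of the dorsal midline, septum, thalamus, olfactory bulb and cerebellum, and Tbx18 is also made in pericytes and smooth muscle of vessel walls, so no single gene of the group marks the meninges alone.

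RefSeq promoter entries (build GRCr8) were matched for 7 of the 9 genes, namely Foxc1, Foxd1, Osr1, Tbx18, Twist1, Zic2 and Zic4, and not for Foxc2 or Zic1. For 3 of them the listed start was also the end of the RefSeq gene, and the 120 bases before that start are shown, because these genes had lower values together after BPA. Capitals mark core promoter motifs on either strand, which are the TATA box core TATAA, the CCAAT box CCAAT and the GC box GGGCGG.
Foxc1 (chr17:32844101-32844220, minus strand): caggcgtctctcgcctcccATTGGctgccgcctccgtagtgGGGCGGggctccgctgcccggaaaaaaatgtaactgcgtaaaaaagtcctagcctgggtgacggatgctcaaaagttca
Foxd1 (chr2:31436682-31436801, plus strand): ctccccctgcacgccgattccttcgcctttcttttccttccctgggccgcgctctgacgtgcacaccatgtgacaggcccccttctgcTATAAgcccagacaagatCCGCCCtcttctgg
Twist1 (chr6:56402189-56402308, plus strand): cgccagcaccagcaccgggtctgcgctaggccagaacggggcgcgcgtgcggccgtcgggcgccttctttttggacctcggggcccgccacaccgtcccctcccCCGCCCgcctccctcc
All 3 stretches held the GC box letters. Over the 7 genes with an entry, the same window held the GC box letters in 4 (Foxc1, Foxd1, Twist1 and Zic2), against 23.7% of 33469 RefSeq promoter windows of this length. The TATA letters stood in 3 of the 7 (Foxd1, Osr1 and Zic4), against 12.8% of all windows, and the CCAAT letters in 2 of the 7 (Foxc1 and Tbx18), against 19.9%. The letters TAAACA, the core of a forkhead site, were in 0 of the 7 windows and in 5.28% of all windows. Guanine and cytosine made up 58.3% of the Foxc1 stretch, 60.8% of the Foxd1 stretch and 76.7% of the Twist1 stretch, against a median of 53.3% over all windows. These matches are a description of letters and not evidence of binding.

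The tables held FPKM, fragment numbers scaled by transcript length and library depth, and listed 16782 transcripts for the male and 16819 for the female libraries. Depth was recovered from the steps in the FPKM of scarce transcripts and came to between 8959500 and 9257750 fragments per library, so the libraries were close in depth. The tissue label was checked with 8 genes of cortical neurons, of which 7 were measured in all 4 libraries, and their summed level was between 594.98 and 713.32 FPKM. All 10 markers of fibroblasts were also measured in every library. Their summed level of 444.55 FPKM in the control male and 593.25 FPKM in the control female library was 219.05 FPKM in the BPA male and 151.87 FPKM in the BPA female library, and it moved with the values of the 9 genes below. The marker Ptgds alone supplied 214.04 FPKM of it in the control male and 320.0 FPKM in the control female library. In the BPA libraries Ptgds supplied 109.08 FPKM in the male and 66.86 FPKM in the female. In bulk tissue, fewer cells of a type and less RNA per cell cannot be told apart, and the part of tissue composition in these differences was not tested.

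For each of the 9 genes, both BPA libraries lay below both control libraries, an arrangement held by 32.5% of the 13029 genes with a symbol measured in all 4 libraries, and the ratio was thus below control in both sexes, as for 40.5% of them. Among the 5390 genes within the same range of mean FPKM as the 9, 39.7% had both BPA libraries below both control libraries and 48.5% had a ratio below control in both sexes. The members were chosen on this contrast, so nothing is read from the count. The levels themselves, the size of each difference and how the genes and sexes differed among themselves are given below, with the level of every gene in FPKM.

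**Figure D1:**
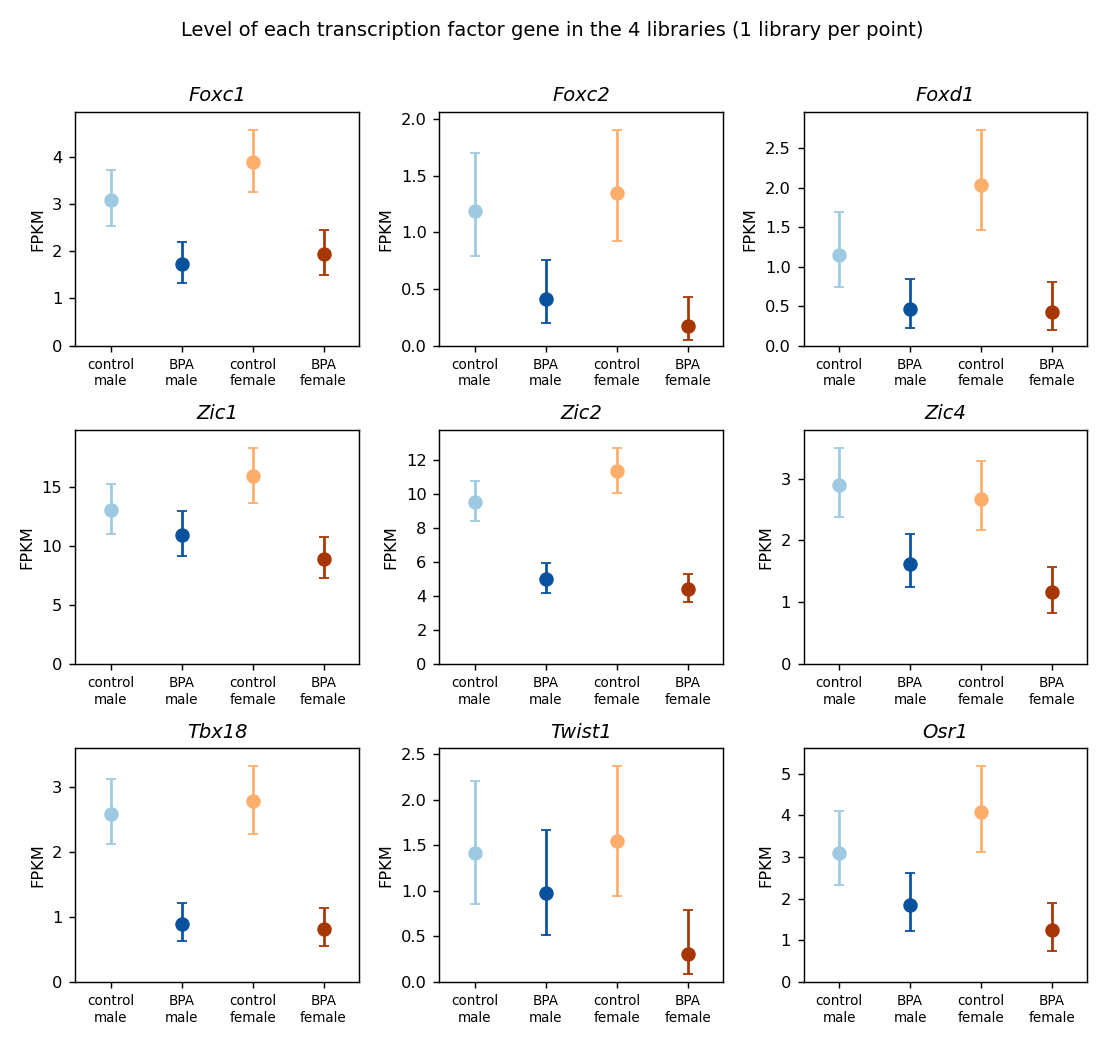
FPKM of each of the 9 genes in the 4 libraries, with the male pair on the left, the female pair on the right and control before BPA in each pair, 1 library per point, with bars for the 95% Poisson interval of the estimated fragments. In every panel both BPA points lie under both control points, and the Zic1 panel shows the male pair closest as a ratio, 13.05 FPKM in the control and 10.94 FPKM in the BPA library.

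Foxc1 is needed for the formation of the meninges over the forebrain. Its level was 3.09 FPKM in the control male, 1.72 FPKM in the BPA male, 3.88 FPKM in the control female and 1.93 FPKM in the BPA female library, estimated to rest on 112, 62, 136 and 68 fragments. The BPA library stood at 55.8% of its control in males (95% counting interval 40.2% to 76.7%) and at 49.7% in females (36.6% to 67.0%). Here and for the other 8 genes these percentages and intervals come from fragments rounded to whole numbers, and they differ by up to 1.12 percentage points, in Osr1, from the ratio of the FPKM. The 2 sexes therefore gave nearly the same ratio, and Foxc1 had the smallest difference between the sexes of the 9 genes.

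Foxc2, a close paralog of Foxc1 known for its part in lymphatic vessels and in mesenchyme, had the lowest mean FPKM of the group. It measured 1.19 FPKM in the control male, 0.41 FPKM in the BPA male, 1.35 FPKM in the control female and 0.17 FPKM in the BPA female library. The BPA level was 34.7% of control in males (15.1% to 73.3%) and 12.4% in females (3.19% to 35.1%), the latter being the lowest percentage of any of the 9 genes. That value rested on 4 fragments in the BPA female library against 32 in the control female library, as few as for Twist1, and its interval was wide.

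Foxd1, a forkhead gene of stromal and pericyte precursors, had its highest level in the control female library. It stood at 1.15 FPKM in the control male, 0.46 FPKM in the BPA male, 2.04 FPKM in the control female and 0.42 FPKM in the BPA female library. The 2 BPA libraries were thus close to each other, and the 2 control libraries differed more, though with overlapping counting intervals. The BPA level was 40.3% of control in males (17.3% to 86.9%) and 20.8% in females (8.92% to 43.3%). Across the 3 forkhead genes the order of levels was Foxc1 above Foxd1 and Foxc2 in all 4 libraries, and the intervals of Foxd1 and Foxc2 overlapped in every library.

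Zic1, a zinc finger factor of the dorsal neural tube and the meninges, was the most abundant of the 9 genes in every library. Its level was 13.05 FPKM in the control male, 10.94 FPKM in the BPA male, 15.93 FPKM in the control female and 8.92 FPKM in the BPA female library. The BPA library held 83.8% of control in males (65.9% to 107%) and 56.0% in females (43.5% to 71.7%). The male interval took in equality, so the male difference was not detectable beyond counting error at this depth. As a ratio to control, Zic1 had the smallest difference of the group in each sex.

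Zic2, known for its requirement in forebrain division, was the next most abundant gene and had the most fragments. It stood at 9.55 FPKM in the control male, 4.98 FPKM in the BPA male, 11.33 FPKM in the control female and 4.42 FPKM in the BPA female library, from an estimated 251, 130, 289 and 113 fragments. The level after BPA was 52.2% of control in males (41.9% to 64.7%) and 38.9% in females (31.0% to 48.5%), the narrowest intervals among the 9 genes relative to their values. Zic1 and Zic2 lay apart from each other, and from the other 7 genes, beyond their counting intervals in all 4 libraries.

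Zic4 lies beside Zic1 in the genome, and their RefSeq gene spans overlap by 1857 bases on chromosome 8 of GRCr8, which is not the build the tables were made with. Its level was 2.90 FPKM in the control male, 1.62 FPKM in the BPA male, 2.67 FPKM in the control female and 1.16 FPKM in the BPA female library. It was the exception among the 9 genes in that the control female library lay below the control male library. The BPA level was 56.1% of control in males (40.1% to 77.8%) and 42.9% in females (29.0% to 62.5%). Whether fragments were counted by strand is not given in the sources used here, so fragments from such an overlap could not be assigned with certainty, and fragments shared by similar stretches of Zic1 and Zic2, or of Foxc1 and Foxc2, were divided by estimation.

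Tbx18, a T-box factor of mesenchyme and of mural cells, had the most even reduction between the sexes after Foxc1. It measured 2.59 FPKM in the control male, 0.89 FPKM in the BPA male, 2.78 FPKM in the control female and 0.81 FPKM in the BPA female library. The BPA libraries and the control libraries formed 2 tight pairs. The BPA level was 34.2% of control in males (22.9% to 50.1%) and 29.0% in females (19.1% to 43.1%). Tbx18 had the lowest male percentage of the 9 genes, close to that of Foxc2.

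Twist1, a basic helix-loop-helix factor of cranial mesenchyme and skull sutures, differed most between the sexes. It stood at 1.41 FPKM in the control male, 0.97 FPKM in the BPA male, 1.54 FPKM in the control female and 0.31 FPKM in the BPA female library. The control libraries were nearly equal, and the BPA female library was the lowest. The BPA level was 68.9% of control in males (31.3% to 147%) and 19.9% in females (4.94% to 59.4%). Only 4 fragments stood behind the BPA female value and 13 behind the BPA male value, and the male interval took in equality.

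Osr1, a zinc finger factor of early mesenchyme and connective tissue progenitors, was listed at 3.09 FPKM in the control male, 1.84 FPKM in the BPA male, 4.08 FPKM in the control female and 1.24 FPKM in the BPA female library. The BPA level was 58.4% of control in males (35.6% to 94.1%) and 30.0% in females (17.0% to 50.8%). The 2 control libraries were above both BPA libraries, and the BPA female library was the lowest of the 4. The row carried the Gene ID 298878 and a description as odd-skipped-related 1, but its gene ontology terms in the table included kinase-like terms such as ATP binding, which belong to an unrelated kinase with the alias OSR1, so the terms were not used for this gene.

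**Figure D2:**
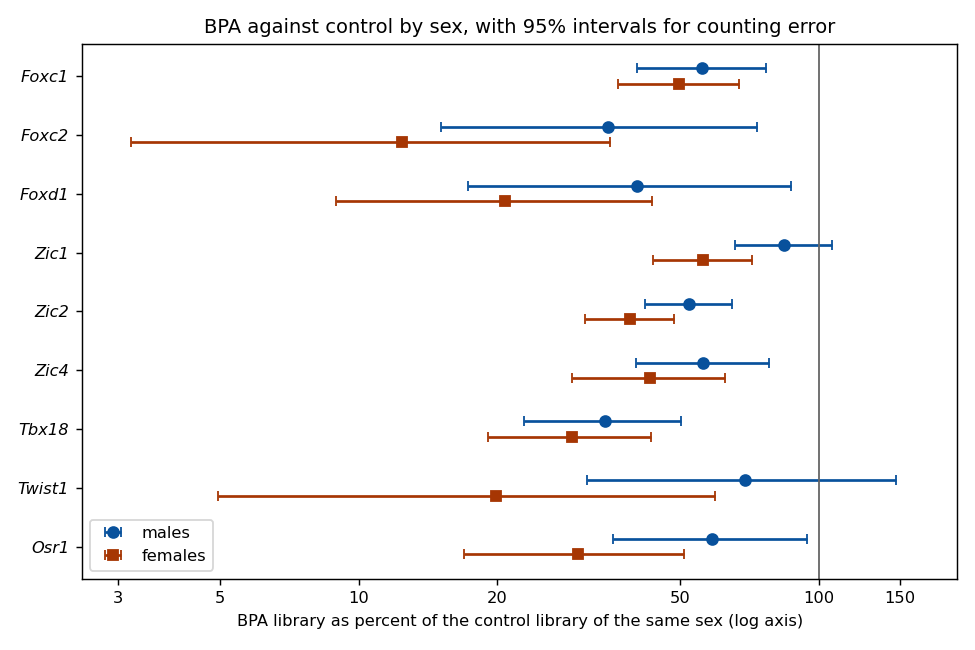
Level in the BPA library as a percentage of the control library of the same sex for each of the 9 genes, on a log axis, with males as circles, females as squares and bars for the 95% counting interval. All points lie left of the line that marks equality, the female square lies left of the male circle for each gene, and only the male intervals of Zic1 and Twist1 reach past that line.

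On the scale of log2((BPA FPKM + 0.5)/(control FPKM + 0.5)), the difference of the 9 genes had a median of -0.69 in males, with a range of -1.15 to -0.24, and of -1.32 in females, with a range of -1.47 to -0.80. The median over all genes was -0.04 in males and -0.06 in females. A log2 ratio at or below -1 was reached by 1 of 9 genes in males, Tbx18, against 1.15% of the 13492 genes with a symbol in the male libraries. In females it was reached by 6 of 9, namely Foxc2, Foxd1, Osr1, Twist1, Tbx18 and Zic2, against 2.18% of 13541. The male count depended on the added value, since it was 3 with 0.1 added or with nothing added and 0 with 1 added. Tbx18 alone reached it in both sexes, as did 0.514% of the 13029 genes in all 4 libraries. The added 0.5 pulls scarce genes towards 0, so these log2 values understate the differences of Foxc2, Foxd1 and Twist1, whose female log2 ratios without it were -2.99, -2.28 and -2.31.

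The counting interval of the ratio lay wholly below equality for 7 of 9 genes in males, as for 17.8% of 13062 genes, and for 9 of 9 in females, as for 19.9% of 13133 genes. The genes themselves were unlike in size of difference. In females the BPA level ranged from 12.4% of control for Foxc2 to 56.0% for Zic1, and in males from 34.2% for Tbx18 to 83.8% for Zic1. The levels in the control male library ran from Zic1 and Zic2 down through Foxc1, Osr1, Zic4 and Tbx18 to Twist1, Foxc2 and Foxd1. In each library's own order of levels, every gene ranked below the third had a counting interval that overlapped that of the gene next above it, so neighbours were not resolved at this depth. Genes further apart could be resolved, since the interval of Foxc1 lay above that of Foxc2 in all 4 libraries.

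The female log2 ratio lay below the male for 9 of 9 genes, as it did for 53.1% of all genes. Both sides of the comparison added to this, since the control female library lay above the control male library for 8 of 9 genes (50.4% of all genes) and the BPA female library lay below the BPA male library for 8 of 9 (52.3% of all genes). Zic4 was the exception among controls and Foxc1 among BPA libraries. The female minus male difference of the log2 ratio, computed from fragments, was -1.79 for Twist1 (95% counting interval -3.65 to 0.06), -1.48 for Foxc2 (-3.31 to 0.34) and -0.58 for Zic1 (-1.07 to -0.10). It was smallest for Foxc1, at -0.17 (-0.78 to 0.45). The interval lay below 0 for 1 of 9 genes, Zic1, as for 9.6% of 12240 genes, and it held 0 for the other 8, and with 1 library per sex and treatment no sex difference of the treatment was tested.

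The summed level of the 9 genes was 38.02 FPKM in the control male, 23.83 FPKM in the BPA male, 45.6 FPKM in the control female and 19.38 FPKM in the BPA female library. The sum after BPA was 62.7% of control in males and 42.5% in females. Zic1, Zic2 and Zic4 supplied most of it, from 65.6% of the sum in the control female library to 74.8% in the BPA female library. The 3 Zic genes together stood at 68.8% of control in males and 48.4% in females, whereas the other 6 genes together stood at 50.2% in males and 31.1% in females. Zic1 weighed most in the Zic sum, and without it Zic2 and Zic4 together stood at 53.0% in males and 39.9% in females. Gene by gene the 2 sets overlapped, since Zic2 and Zic4 stood below Osr1 and Twist1 in males, and below Foxc1 in females, as percentages of control.

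The sums were also set against 3 fibrillar collagen genes of fibroblasts, Col1a1, Col1a2 and Col3a1, whose sum stood at 44.2% of control in males and 28.3% in females. The 6 genes that are not Zic genes amounted to 9.90% of the collagen sum in the control male, 11.2% in the BPA male, 9.98% in the control female and 11.0% in the BPA female library. This proportion was slightly higher in both BPA libraries than in both control libraries. The 3 Zic genes amounted to 20.2% of the collagen sum in the control male, 31.3% in the BPA male, 19.1% in the control female and 32.6% in the BPA female library. Their proportion was likewise higher in both BPA libraries than in both control libraries, and by more. Without Zic1 it was 9.84% in the control male, 11.8% in the BPA male, 8.91% in the control female and 12.6% in the BPA female library, so most of that rise came from Zic1. These proportions compare single libraries, rest on genes chosen with their values known and have no replicate error.

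**Figure D3:**
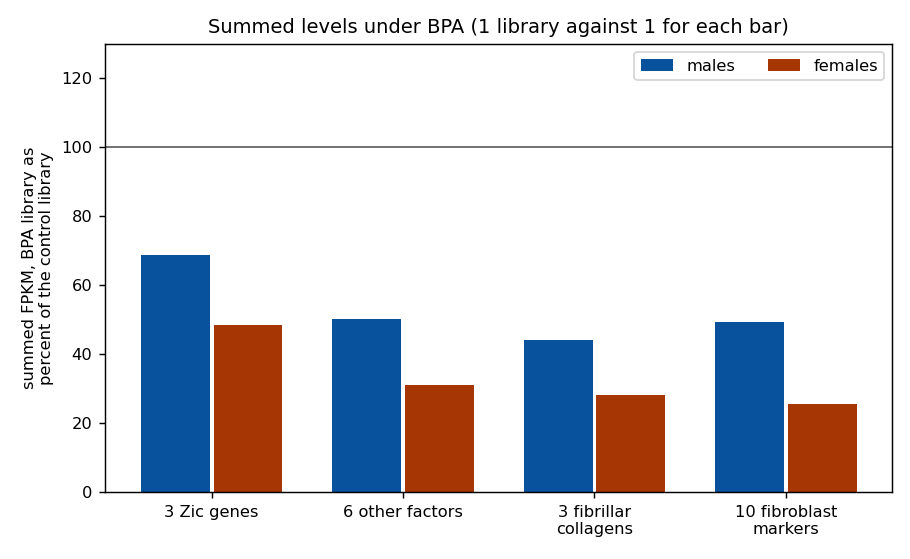
Summed FPKM in the BPA library as a percentage of the control library of the same sex, for the 3 Zic genes, the other 6 factors, the 3 fibrillar collagens and the 10 fibroblast markers, with 1 bar per sex and a line that marks equality. The Zic bars are the tallest in both sexes, at 68.8% in males and 48.4% in females. The bars of the other 6 factors stand at 50.2% in males and 31.1% in females. Those of the collagens stand at 44.2% and 28.3%, and those of the fibroblast markers, of which Ptgds has the highest FPKM, at 49.3% and 25.6%.

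Related transcription factor genes were compared with limma, which took the 2 sexes as the 2 libraries of each treatment and called 403 genes lower (3.79% of 10629 tested) and 74 higher (0.696%) after BPA at an adjusted p under 0.05. By the litters the methods describe, the male and female pups of a treatment could share dams, and pooling of pups is not stated. These 2 libraries therefore cannot be taken as independent replicates. With FPKM divided by size factors the split was 319 lower and 121 higher, and with sex as a block, which sets BPA against control within each sex, it was 673 lower and 202 higher. Without the filter on low values limma called 0 of 13029 genes (2417 at an unadjusted p under 0.05). Among 19 paralogs and genomic neighbours of the 9 genes, 9 were measured in all 4 libraries, 4 of these had a log2 ratio below 0 in both sexes, and the list's median was 0.00 in males and -0.28 in females. Of the 3 abundant enough to test with limma, 1 was called lower and 0 higher (2 lower and 0 higher at an unadjusted p under 0.05). Zic5, the neighbour of Zic2, had log2 ratios of -0.38 in males and -1.66 in females (limma adjusted p = 0.095), and Foxq1, the neighbour of Foxc1, had 0.35 and -0.69 (limma adjusted p = 0.748).

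Other transcription factor genes of craniofacial and connective tissue mesenchyme were scarce here. Of 24 on the list, 20 were measured in all 4 libraries and 17 had a log2 ratio below 0 in both sexes, with a median of -0.37 in males and -0.33 in females (-0.66 and -0.87 with 0.1 added in place of 0.5). Only 7 reached the mean of 1 FPKM needed for limma, with 1 called lower and 0 higher (3 lower and 0 higher at an unadjusted p under 0.05). Prrx1, a homeobox gene of mesenchyme, had log2 ratios of -0.21 and -0.79 and was not called (limma adjusted p = 0.218). The orphan nuclear receptor gene Nr2f2, the most abundant of the list, had -0.42 and -0.15 (limma adjusted p = 0.186).

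Forkhead genes of neural cells had medians above 0, on the other side from the 3 forkhead genes of the group. All 11 measured were tested with limma, 0 were called lower and 2 higher (0 lower and 3 higher at an unadjusted p under 0.05), with a median log2 ratio of 0.22 in males and 0.19 in females. Foxp1, a factor of cortical projection neurons, was higher (limma log2 ratio 0.47, SE 0.08, adjusted p = 0.0115).

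Among 14 genes for signals and matrix that meninges supply to the cortex, 12 were measured, 10 of them had a log2 ratio below 0 in both sexes and 7 of 11 tested with limma were called lower and 0 higher (9 lower and 0 higher at an unadjusted p under 0.05). The median log2 ratio of this list was -0.66 in males and -1.19 in females, close to that of the 9 transcription factor genes. Igf2, an imprinted growth factor gene, was 61.22 FPKM in the control male, 18.69 FPKM in the BPA male, 61.10 FPKM in the control female and 14.13 FPKM in the BPA female library (limma log2 ratio -1.88, SE 0.11, adjusted p = 5.97e-05). Aldh1a2, which makes retinoic acid, was lower (-1.42, SE 0.19, limma adjusted p = 0.00396), as were the matrix proteoglycan gene Bgn, Bmp7 and Cxcl12. Crabp2, a retinoic acid binding protein gene, was lower with all 4 libraries (limma log2 ratio -0.98, adjusted p = 0.0374) and in only 2 of the 4 fits that left out a library. It was lost without the control female library (limma log2 ratio -0.80) and without the BPA female library (limma log2 ratio -0.60, adjusted p = 0.0882). Bmp6 was the seventh gene called lower, and not without the control female library (limma adjusted p = 0.0549).

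The 12 cortical receptor genes for those signals had medians near 0. Their median log2 ratio was -0.09 in males and -0.01 in females, with 0 called lower and 1 higher by limma (1 lower and 2 higher at an unadjusted p under 0.05). That gene was Rarb, a retinoic acid receptor gene, at a log2 ratio of 0.71 in males and 0.44 in females (limma adjusted p = 0.0308). It was called in only 1 of the 4 fits that left out a library, with a limma adjusted p of up to 0.101 without the control male library. Of 18 genes for cofactors and partners of the 9 factors, 14 were measured in all 4 libraries and 11 were tested, with 1 called lower and 3 higher. Id3, an inhibitor of basic helix-loop-helix factors such as Twist1, was lower (limma log2 ratio -0.52, SE 0.08, adjusted p = 0.0091), and its relative Id2 was higher (0.37, SE 0.07, limma adjusted p = 0.0202), though not without the control female library (limma adjusted p = 0.0998). Tle3 and Tle4, corepressor genes, were the other 2 called higher, each called in only 1 of the 4 fits that left out a library.

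**Figure D4:**
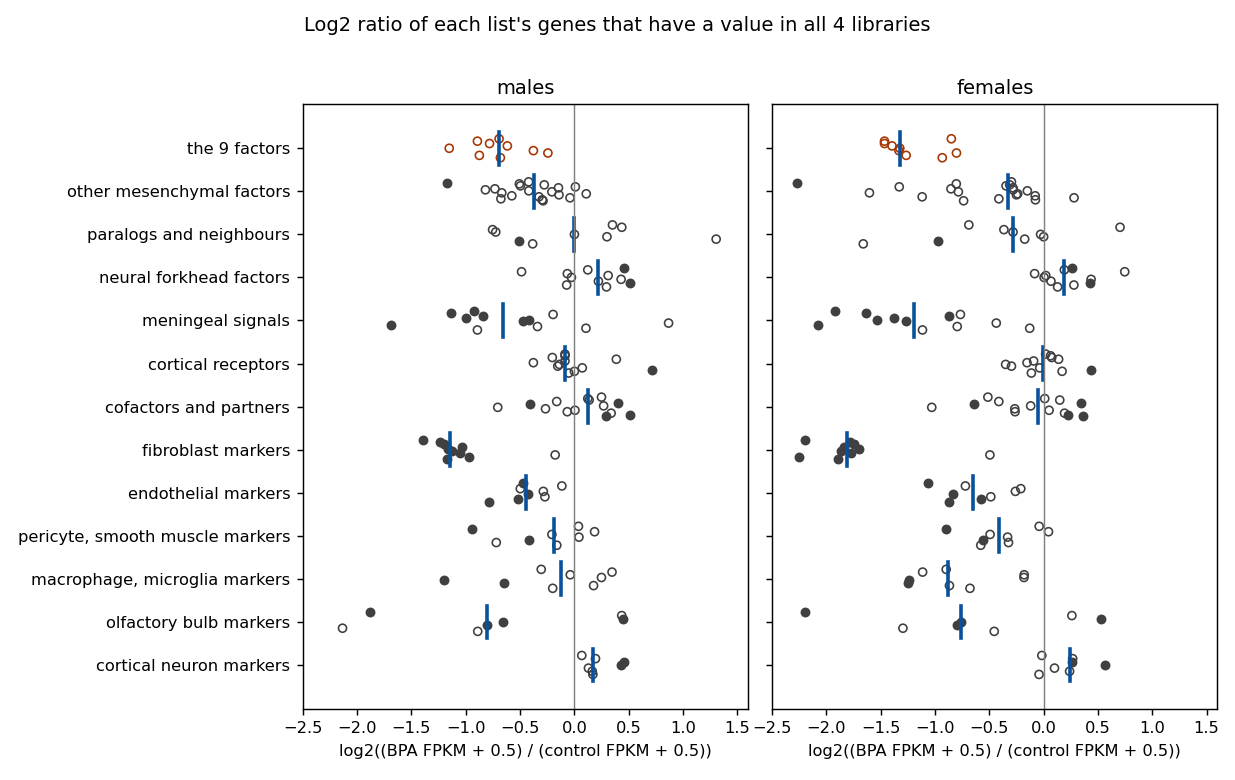
Log2 ratio of BPA to control, on FPKM + 0.5, in males (left) and females (right) for each gene measured in all 4 libraries, by list, with a vertical bar at the list's median. Filled points are genes called by limma. The 9 factors are all open orange points, since no limma result is given for them. The medians of the 9 factors, -0.69 and -1.32, lie near those of the meningeal signals, -0.66 and -1.19, and to the right of those of the fibroblast markers, -1.15 and -1.81.

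Markers of other cell types that can hold these factors were also called lower in part, and their part in the values of the 9 genes was not tested. Of 10 fibroblast markers, 9 were called lower and 0 higher by limma (10 lower and 0 higher at an unadjusted p under 0.05), and the tenth, Pdgfra, which oligodendrocyte precursors also make, had log2 ratios of -0.18 and -0.49 (limma adjusted p = 0.0808). The list's median was -1.15 in males and -1.81 in females, beyond that of the 9 transcription factor genes in both sexes. The gap depended on the added value, since with 0.1 added the medians of the markers and of the 9 genes were -1.19 and -0.81 in males and -1.85 and -1.64 in females. All 8 endothelial markers had a log2 ratio below 0 in both sexes. Of these, 4 were called lower and 0 higher by limma (7 lower and 0 higher at an unadjusted p under 0.05). The limma log2 ratio of Kdr, -0.63 with all 4 libraries, ran from -0.83 to -0.44 when a library was left out. That of Slco1c1, -0.55, ran from -0.65 to -0.45. The endothelial sum was 131.82 FPKM in the control male, 105.88 FPKM in the BPA male, 152.46 FPKM in the control female and 94.81 FPKM in the BPA female library. Of 8 markers of pericytes and smooth muscle, the mural cells that also make Tbx18, 7 were tested with limma. Of these, 2 were called lower, Rgs5 and Acta2, and 0 higher (4 lower and 0 higher at an unadjusted p under 0.05). The list went both ways, with 5 of 8 below 0 in both sexes. Kcnj8 was above 0 in both, at log2 ratios of 0.19 in males and 0.04 in females. Pdgfrb had 0.04 and -0.33, and Abcc9 had 0.04 and -0.04. The mural sum was 61.81 to 67.71 FPKM in controls and 48.65 to 50.03 FPKM after BPA, which is 80.9% of control in males and 71.9% in females. Rgs5 was the most abundant of these markers, and Acta2, a smooth muscle gene, stood at 47.3% of control in males and 49.0% in females. Of 8 macrophage and microglia markers, 6 were tested and 2 called lower by limma, Lyve1 and Mrc1, the latter in only 2 of the 4 fits that left out a library, being lost without the control female (limma adjusted p = 0.206) and without the BPA female library. Cd163, P2ry12 and Cx3cr1 of that list had log2 ratios of 0.35, 0.18 and 0.25 in males and of -1.11, -0.87 and -0.18 in females, and the macrophage and microglia sum was 29.38 to 31.7 FPKM in controls and 17.49 to 24.25 FPKM after BPA.

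Neural regions outside the cortex that make Zic genes were checked in the same way. Of 8 olfactory bulb markers, 7 were measured, and 3 were called lower and 1 higher of 4 tested with limma. Cdhr1, a gene of bulb projection neurons, stood at 41.10 FPKM in the control male, 10.77 FPKM in the BPA male, 44.48 FPKM in the control female and 9.29 FPKM in the BPA female library (limma log2 ratio -2.04, SE 0.10, adjusted p = 1.05e-05), and Tbx21 of the same neurons was listed at 1.74, 0.01, 0.85 and 0.05 FPKM in that order. The bulb sum was 83.57 to 86.3 FPKM in controls and 51.47 to 51.58 FPKM after BPA. Without Cdhr1 the other 6 genes summed to 42.47 FPKM in the control male, 40.81 FPKM in the BPA male, 41.82 FPKM in the control female and 42.18 FPKM in the BPA female library. Lhx2 was the most abundant of these, and without both genes the sum stood at 55.2% of control in males and 55.7% in females. The members went both ways, with Slc17a6 and Sp8 called lower and Lhx2 called higher (limma log2 ratio 0.49, adjusted p = 0.0088), although Sp8 was not called without the control female library (limma adjusted p = 0.0872). None of the 3 septal, 2 thalamic and hypothalamic or 3 cerebellar granule cell markers tested was called by limma in either direction (1 septal and 1 cerebellar marker lower and 0 of any higher at an unadjusted p under 0.05), and the septal and cerebellar sums were 31.92 to 37.1 FPKM and 22.38 to 26.79 FPKM over the 4 libraries. The thalamic and hypothalamic sum was 4.41 FPKM in the control male, 3.4 FPKM in the BPA male, 6.18 FPKM in the control female and 3.67 FPKM in the BPA female library, which is 77.1% of control in males and 59.4% in females. Of 8 Cajal-Retzius cell markers, 6 were measured, 5 of these had a log2 ratio below 0 in both sexes, and their sum stood at 75.9% of control in males and 69.1% in females. Without Calb2 the sum of the other 5 stood at 112% in males and 88.4% in females, so the male direction turned. Of 4 tested with limma 1 was called lower, Calb2, a gene also made by interneurons and bulb cells, and Reln was the exception in direction, with log2 ratios of 0.24 and -0.11.

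Tissue next to the meninges was scarce in all libraries. The 8 bone and cartilage markers summed to 9.71 to 11.8 FPKM, with 0 of 3 tested called by limma (0 at an unadjusted p under 0.05) and Sp7, Bglap and Ibsp each listed at 0.01 FPKM in at least 1 library. The 7 choroid plexus markers measured in all 4 libraries summed to 3.32 to 4.17 FPKM, with 0 of 2 called (0 at an unadjusted p under 0.05) and Folr1 listed at 0.01 FPKM in both control libraries. The muscle and skin markers summed to 5.02 to 6.88 FPKM, nearly all from Acta1, with 0 of 1 called (0 at an unadjusted p under 0.05). The cortical neuron markers had medians on the other side of 0 from the 9 genes, with 5 of 7 above 0 in both sexes, Tbr1 and Bcl11b at -0.04 and -0.02 in females, 0 called lower and 2 of 7 higher by limma, among them Neurod2 (0 lower and 4 higher at an unadjusted p under 0.05), and a median log2 ratio of 0.17 in males and 0.24 in females.

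The genes whose pattern over the 4 libraries was most like that of the summed 9 genes were found by the Euclidean distance of log2(FPKM + 0.5), centred on the mean of the 4 libraries, over 10621 other genes. They were Naaa, Adamts2, Col6a2, Copz2, Serpinh1, Cdkn1c, Apoe, Fst, Olfml2a and Nid2, at distances of 0.055 to 0.131. Naaa, a lysosomal hydrolase gene and the nearest, had 1.34 FPKM in the control male, 0.68 FPKM in the BPA male, 1.77 FPKM in the control female and 0.50 FPKM in the BPA female library. With the 3 Zic genes left out of the sum, the nearest 10 included Gpc3, Col5a1, Emp1, Lrrc17, Bmp7, Fmod, Mrgprf, Ogn and Sned1, and 0 genes were in both lists. Likeness over 4 libraries is a description.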

How the data were processed

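The authors sequenced oligo(dT)-selected RNA on an Illumina HiSeq instrument, mapped reads to Rnor_6.0 (rn6) with Bowtie 2 and estimated expression with RSEM, as the methods of the study state, and the submitters' processing notes also name HISAT. Versions are not given in the sources used here. The deposited values are FPKM, normalised by the authors for length and depth, with 2 decimals and a lowest listed value of 0.01. Whether counting used strand is not given in the sources used here.

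Fragments were estimated as FPKM times transcript length minus 60 bases times depth, where depth was the number for which 676 to 729 scarce transcripts per library came closest to whole fragments (78.9% to 81.3% within 0.1). The step was tested on simulated data. Of the 36 estimates for the 9 genes, 21 lay within 0.2 of a whole number, and all were rounded to whole fragments for percentages and intervals. Exact Poisson and conditional binomial 95% intervals cover counting error only. No genome coordinates of the expression tables were used.

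Log2 ratios used FPKM + 0.5. Genes measured in all 4 libraries with a mean FPKM of at least 1 were tested with limma 3.58.1 (R 4.3.3), with treatment as the single term, a variance prior that follows the mean level, Benjamini-Hochberg adjustment and 2 residual degrees of freedom. The fit held 8 of the 9 genes, which thus count among the genes tested, but no limma result is given for them. The sexes stood in for replicates, so p-values measure the spread between the libraries of the 2 sexes. The methods of the study name 6 litters over both treatments and 3 pups per sex and treatment, so the sexes of a treatment could share dams. The p-values therefore cannot be taken to measure the spread between independent litters. Other steps used Python 3.11.15, numpy 2.4.6, pandas 2.3.3, scipy 1.17.1 and matplotlib 3.10.9. The 3415 transcripts without a symbol were left out, and 0 of them carried an annotation naming any of the 9 genes.

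The 9 genes and all lists were chosen with earlier results of these data known. Named from each list were genes past an absolute log2 ratio of 1 in both sexes, the 3 most abundant and those called by limma, up to 6, of which the text gives a part. The ratio without the added 0.5, the group without Zic genes, the sums without Zic1, Cdhr1, Lhx2 or Calb2 and the likeness without Zic genes were chosen after seeing the data. Some genes of the lists are not reported here by name, and counts include them.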

Additional observations from a re-analysis of the deposited data

How the results depend on the processing

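All 136 values of single members under other settings stayed below 0, from -2.99 to -0.21, and 11, all with 0.1 or nothing added, lay beyond the counting interval as recomputed with 0.5 added, which is narrower than that of the ratio itself. The number of members at or below a log2 ratio of -1 in males, 1 as reported, was 3 with 0.1 added, 0 with 1 added and 3 with nothing added, and the female median without an added value was -1.72. Over both sexes the median of the members was -1.01, and leaving out each library in turn gave -1.18 to -0.83. The 477 genes called by limma became 875 (202 higher and 673 lower) with sex as a block, which pairs BPA with control within each sex, 74 with 1 row per transcript, 0 of 13029 without the filter on low values (2417 at an unadjusted p under 0.05), and 252 to 490 when a library was left out, 252 without the control female and 292 without the BPA female library. Of the 39 list genes called, 25 remained called without each library in turn, 39 with sex as a block, 13 with 1 row per transcript and 0 without the filter. With 0.1 added, list medians moved to -0.48 for the paralogs in females, to -0.66 and -0.87 for the other mesenchymal factors in males and females and to -1.39 for the meningeal signals in females, and with 1 added to -0.63 for the olfactory bulb markers in males. The cause of these shifts was not tested. Replicate numbers pair nothing beyond that, since each group held 1 library. Choosing the most abundant row of a symbol or matching letters in any case changed nothing for the members, since each symbol had 1 row. Depth limits Foxc2, Foxd1 and Twist1 most, with 4 to 9 fragments in the BPA female and 10 to 13 in the BPA male library.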

Other observations

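Genes whose annotation in the tables names transcription factor activity had medians near 0. Of 479 such genes tested with limma, 8 (1.67%) were called lower and 18 (3.76%) higher after BPA, against 3.79% lower and 0.696% higher over all 10629 genes. Their median log2 ratio was 0.00 in males and -0.03 in females. A log2 ratio at or below -1 in both sexes was reached by 3 of 576 (0.521%), and both BPA libraries lay below both control libraries for 27.6% of them and above for 23.6%, against 32.5% and 17.2% over all genes measured in the 4 libraries. Among scarce relatives of the 9 genes, Foxs1, a forkhead gene of pericytes and sensory neurons, stood at 0.52 FPKM in the control male, 0.88 FPKM in the BPA male, 0.63 FPKM in the control female and 1.34 FPKM in the BPA female library, which is higher after BPA in both sexes. Prrx2, a homeobox gene of mesenchyme, stood at 0.74, 0.28, 1.05 and 0.01 FPKM in the same order. Neither reached the mean FPKM of 1 needed for the test, and both were singled out after their values were seen.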
